A study of Mus musculus with 16 samples.

Results

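The extracellular matrix genes of sorted mouse brain endothelial cells (bECs) are described here. Genes were taken by symbol. They comprised every collagen chain, every laminin alpha, beta or gamma chain, both nidogens, and Hspg2, Agrn, Fn1 and Sparc. The rule found 61 of the 37003 genes in the count table, of which 44 were collagen chains and 11 were laminin chains. All 61 passed the filter on low counts and were among the 31085 genes tested.

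The bECs came from YT-iKO mice (Pdgfb-iCreERT2+/-:Yapfl/fl:Wwtr1fl/fl) and from CTRL littermates (Pdgfb-iCreERT2+/+:Yapfl/fl:Wwtr1fl/fl), which carried the same floxed alleles of Yap1 and Wwtr1 (TAZ) without the Cre transgene. Adult mice of both sexes and of both genotypes received tamoxifen, then sham surgery or 30 min of middle cerebral artery occlusion (MCAo), and cells were sorted 72 hours later as DAPI-, CD45- and CD31+. Each genotype gave 4 libraries after sham and 4 after MCAo, each made from a pool of several mice. The transgene also carries eGFP. The Cre is driven by the Pdgfb promoter, a gene of endothelial cells that other cells also use. After MCAo the ischemic territory and the matching contralateral area were both dissected, and whether a library held both is not given in the sources used here. In these bulk libraries fewer cells of a type and less RNA per cell cannot be told apart.

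The basement membrane of a brain capillary is a sheet that endothelial cells share with pericytes and astrocytes. Laminin trimers, each of an alpha, a beta and a gamma chain, and collagen IV trimers form separate networks, nidogens bridge them, and the heparan sulfate proteoglycans perlecan (Hspg2) and agrin (Agrn) bind to both. Fibrillar collagens belong to the interstitial matrix around larger vessels and are mostly made by fibroblasts. YAP and TAZ are transcriptional coactivators that reach DNA through TEAD factors.

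The 16 libraries held 11418262 to 23074547 counts. CPM, used throughout, are counts divided by library size after TMM scaling. In CTRL bECs Yap1 was at 111 to 112 CPM after sham and 80.5 to 133 after MCAo, and in YT-iKO bECs at 38.6 to 59.2 and 37.1 to 63.0. Wwtr1 was at 253 to 276 and 235 to 438 CPM in CTRL and at 45.0 to 95.9 and 60.7 to 136 in YT-iKO, so that neither gene overlapped between the genotypes. All 12 endothelial markers had a median over the 16 libraries of at least 3 times the background described next. The libraries differed in an even background, measured as counts per kilobase of exon over 1566 chemosensory receptor genes, which bECs are not known to use. It ranged from 0.0312 (YT-iKO MCAo replicate 4) to 0.576 CPM per kilobase (YT-iKO MCAo replicate 2). It was 0.329 and 0.392 in CTRL MCAo replicates 2 and 3, 0.576 and 0.445 in YT-iKO MCAo replicates 2 and 3 and 0.570 in YT-iKO sham replicate 3, and at most 0.253 in the other 11 libraries.

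The highest matrix genes of these cells were fibronectin, Sparc and genes of the basement membrane. Per kilobase of exon, and averaged over the 16 libraries, fibronectin (Fn1), a secreted glycoprotein bound by integrins, had the highest level, 427 CPM per kilobase. Sparc, a glycoprotein that binds collagens, followed at 212. The chains of the collagen IV trimer of vessels were next, Col4a1 at 187 and Col4a2 at 154. Agrn had 107, Lamb2 105, Hspg2 101 and Lama5 67.5 CPM per kilobase. The ranges over libraries of these 8 genes overlapped with those of their neighbours in the order. Lamc1, the gamma chain of most laminins, was at 36.3, Nid1 at 23.8, Nid2 at 17.8 and Lama4 at 16.2 CPM per kilobase. Lamb1 stood much lower, at 2.74. In CTRL sham the mean levels were 1.23 ± 0.418 CPM per kilobase for Lamb1 and 122 ± 6.93 for its paralog Lamb2 (SD, n = 4).

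Of the 61 genes, 41 had at least 3 times the count expected from the even background in all 4 libraries of at least 1 group, and 19 had at least 10 times in the same sense. The 20 that did not reach 3 times, with medians of 1.34 to 3.29 times, included Col1a2, Col3a1, Col6a2, Col6a3 and Lamb3, a chain of epithelial laminins. All 5 laminin alpha chains, both nidogens, both proteoglycans and both multiplexins were above it. Of the 11 fibrillar collagens, 6 were above it and none reached 10 times. Col1a1, the main chain of interstitial collagen I, had 0.906 CPM per kilobase, or 3.90 times the expected count as a median. Per library, the background accounted for 17.6 to 48.7% of the summed counts of the 20 low genes, and some of them were well above it in single libraries, such as Col1a2 at up to 23.2 times and Col3a1 at up to 11.5 times.

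**Figure D1:**
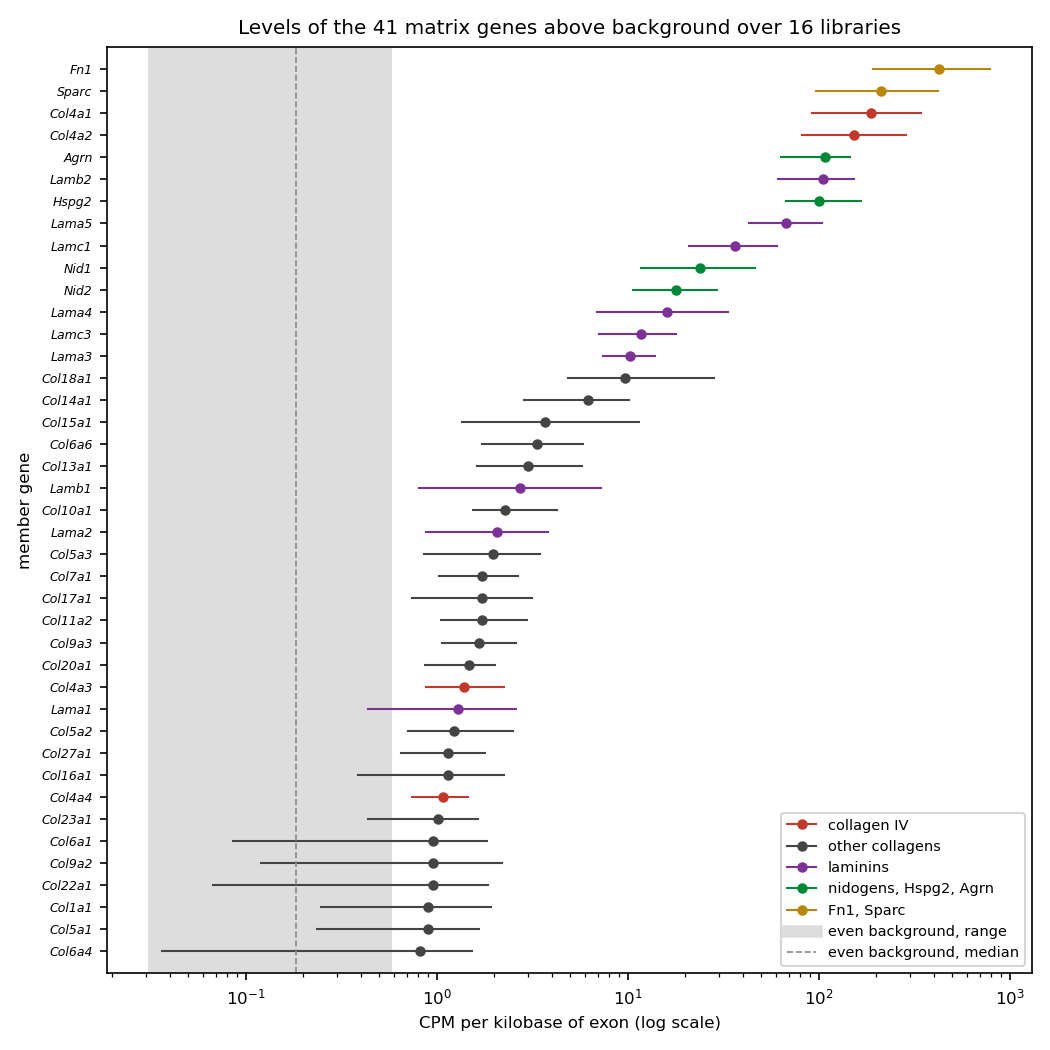
Level in CPM per kilobase of exon, on a log axis, of the 41 matrix genes with at least 3 times the count expected from the even background in all 4 libraries of a group. Points are means and lines the lowest and highest of the 16 libraries, and the grey band is the range of the even background, from 0.0312 to 0.576. Fn1, Sparc and basement membrane genes lie at the top, and Col1a1 and Col5a1, at 0.906 and 0.897, lie near the band.

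After MCAo, the matrix genes took a larger share of all counts in both genotypes. The 61 genes held 1.05 to 1.21% of the counts in CTRL sham and 1.47 to 1.65% in CTRL MCAo. They held 0.990 to 1.08% in YT-iKO sham and 1.29 to 1.73% in YT-iKO MCAo. The groups did not overlap within either genotype. Without Fn1 the other 60 genes held 0.736 to 0.825% after sham and 0.861 to 0.960% after MCAo in CTRL, and 0.724 to 0.792% and 0.766 to 1.05% in YT-iKO, where the groups overlapped. No test was made of these shares. Of the counts on the 61 genes, Fn1 alone held 30.1 to 34.3% after sham and 41.4 to 44.8% after MCAo in CTRL, and 26.4 to 29.7% and 39.2 to 41.1% in YT-iKO.

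Gene by gene, MCAo changed 1 matrix gene in each genotype at an adjusted p under 0.1 in edgeR's quasi-likelihood test. In CTRL bECs it was Col14a1, which fell, beside 0.216% of all genes tested. In YT-iKO bECs it was Lamb1, which rose, beside 0.318% of all genes. DESeq2 called 5 of the 61 in each genotype, beside 1.11% of the genes given an adjusted p in CTRL and 1.25% in YT-iKO. They were Col14a1, Col17a1, Fn1 and Lamb1 in both, Col5a3 in CTRL and Nid1 in YT-iKO. At an unadjusted p under 0.05, 10 genes passed in CTRL, 9 of them higher after MCAo, where 3.5% of all genes passed and 2.05% were higher. In YT-iKO 12 passed, 11 of them higher, where 3.01% of all genes passed and 2.24% were higher. The median log2 fold change of the 61 genes was 0.36 in CTRL against 0.07 over all genes tested, and 0.02 in YT-iKO against -0.02. Values of sham and MCAo did not overlap for 8 of the 61 genes in CTRL (4.14% of all genes) and for 4 in YT-iKO (1.28%).

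Lamb1 (ENSMUSG00000002900, chr12:31265234-31329644, + strand, GRCm38) encodes a laminin beta chain that takes the place of the Lamb2 chain in other trimers. In CTRL sham its libraries had 10.2, 9.002, 11.4 and 18.3 CPM, and in CTRL MCAo 62.5, 32.0, 21.3 and 38.0 CPM. In YT-iKO sham they had 13.5, 8.04, 16.7 and 12.3 CPM, and in YT-iKO MCAo 65.8, 24, 19.7 and 72.1 CPM. The MCAo libraries all lay above the sham libraries of the same genotype, with replicates 1 and 4 highest in YT-iKO. Lamb1 rose 3.60-fold in YT-iKO (log2 fold change 1.85, SE 0.39, adjusted p = 0.0437). In CTRL the fold was 3.14 (log2 1.65, SE 0.38, adjusted p = 0.120, and 0.00263 in DESeq2). With the replicate number as a block its adjusted p in CTRL was 0.0198, and with RLE factors, without a filter and with the filter of CPM above 1 in 4 libraries it was 0.0825, 0.0739 and 0.0682. The response did not differ detectably between the genotypes, with a difference of 0.19 on the log2 scale and an SE of 0.53, whose sign turned with TMM factors from genes of at least 10 CPM. The call in YT-iKO was lost when YT-iKO sham replicate 1, 2 or 4 or YT-iKO MCAo replicate 1 was left out, with adjusted p-values of 0.131, 0.241, 0.210 and 0.238 at log2 fold changes of 1.80, 1.62, 1.84 and 1.5, and with only the YT-iKO groups in the model it was 0.272. Lamb1 had 4.00 times the count expected from the even background in the library where it was nearest to it.

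Lamb2 itself did not follow. Its CTRL libraries had 682, 758, 757 and 778 CPM after sham and 931, 572, 553 and 852 CPM after MCAo. Its YT-iKO libraries had 614, 593, 373 and 523 CPM after sham and 669, 381, 443 and 777 CPM after MCAo. The MCAo values enclosed the CTRL sham values, and the log2 fold changes were -0.03 (SE 0.27) in CTRL and 0.11 (SE 0.27) in YT-iKO.

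The ratio of partner chains within a library does not depend on the scaling of libraries. The ratio of Lamb1 to Lamb2 per kilobase was 0.00729 to 0.0144 in CTRL sham and 0.0236 to 0.0412 in CTRL MCAo, a 3.18-fold difference (log2 difference 1.67, exact two-sided permutation p = 0.0286, adjusted over 16 ratio tests 0.0508). It was 0.00831 to 0.0275 in YT-iKO sham and 0.0273 to 0.0603 in YT-iKO MCAo, a 3.01-fold difference (exact permutation p = 0.0571, adjusted 0.0762). With 4 libraries against 4, 0.0286 is the smallest p that this test can give. In YT-iKO the highest sham library, replicate 3, reached the lowest MCAo library, and without it the log2 difference was 1.89.

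Stretches of the promoters of Lamb1, Lamb2 and Nid1 are given because Lamb1 rose while its alternative chain did not, and because the Nid1 stretch holds a TEAD core. They are from RefSeq on GRCm38.p6, 5′ to 3′ on the + strand, and end at the base before the gene's annotated start. Capitals mark the TEAD core GGAATG and the GC box GGGCGG, each searched on both strands.
Lamb1, chr12:31265043-31265233: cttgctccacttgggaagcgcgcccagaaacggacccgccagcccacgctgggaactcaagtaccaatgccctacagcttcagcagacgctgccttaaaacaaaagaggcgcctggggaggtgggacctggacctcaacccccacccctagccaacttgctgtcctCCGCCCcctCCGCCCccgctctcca
Lamb2, chr9:108479612-108479735: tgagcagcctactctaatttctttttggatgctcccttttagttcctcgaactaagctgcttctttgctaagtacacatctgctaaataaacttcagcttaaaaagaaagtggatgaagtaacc
Nid1, chr13:13437352-13437550: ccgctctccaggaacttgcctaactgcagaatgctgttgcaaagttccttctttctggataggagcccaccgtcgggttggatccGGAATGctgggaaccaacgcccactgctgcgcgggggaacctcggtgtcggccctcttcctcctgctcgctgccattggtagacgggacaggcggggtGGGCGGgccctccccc

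The Lamb1 stretch held 2 GC boxes and no TEAD core, the Lamb2 stretch neither, and the Nid1 stretch 1 of each. G and C made up 63.9% of the Lamb1 stretch and 37.9% of the Lamb2 stretch. In the 250 bases before each RefSeq start, GGAATG occurred in 12.6% of 32851 promoters and GGGCGG in 32.7%, and the 2 motifs overlapped in 27 promoters. RefSeq windows were matched for 44 of the 61 genes, of which 6 held GGAATG (Col18a1, Col20a1, Col3a1, Col6a2, Lamb3 and Nid1) and 26 held GGGCGG. A gene was counted if any of its windows held the motif, whereas the shares above are of promoters, so the 2 are not in the same unit. A match is a run of letters and not evidence of binding.

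Nid1 and Nid2, the linkers between the laminin and collagen IV networks, differed from each other. Nid1 (ENSMUSG00000005397, chr13:13437551-13512269, + strand) had 116, 120, 121 and 138 CPM in CTRL sham and 318, 212, 138 and 269 CPM in CTRL MCAo, so that 1 MCAo library lay within the sham values. It had 123, 101, 81.6 and 83.8 CPM in YT-iKO sham and 275, 108, 120 and 323 CPM in YT-iKO MCAo, of which 2 lay within the sham values. The log2 fold changes of Nid1 were 0.92 (SE 0.31, adjusted p = 0.764) in CTRL and 1.08 (SE 0.31, adjusted p = 0.349) in YT-iKO, and those of Nid2 were -0.23 (SE 0.25) and -0.01 (SE 0.25). For Nid1 the adjusted p of DESeq2 was 0.164 in CTRL and 0.0464 in YT-iKO. The ratio of Nid1 to Nid2 per kilobase was 0.905 to 1.31 in CTRL sham and 1.65 to 2.58 in CTRL MCAo, a 2.14-fold difference. It was 0.661 to 0.793 in YT-iKO sham and 1.11 to 1.93 in YT-iKO MCAo, a 2.04-fold difference. Neither genotype overlapped between sham and MCAo (exact permutation p = 0.0286 each, adjusted 0.0508). Exons of Nid2 overlap those of Rtraf on the other strand by 437 bp of 5174, and whether the counting used strand is not given in the sources used here.

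**Figure D2:**
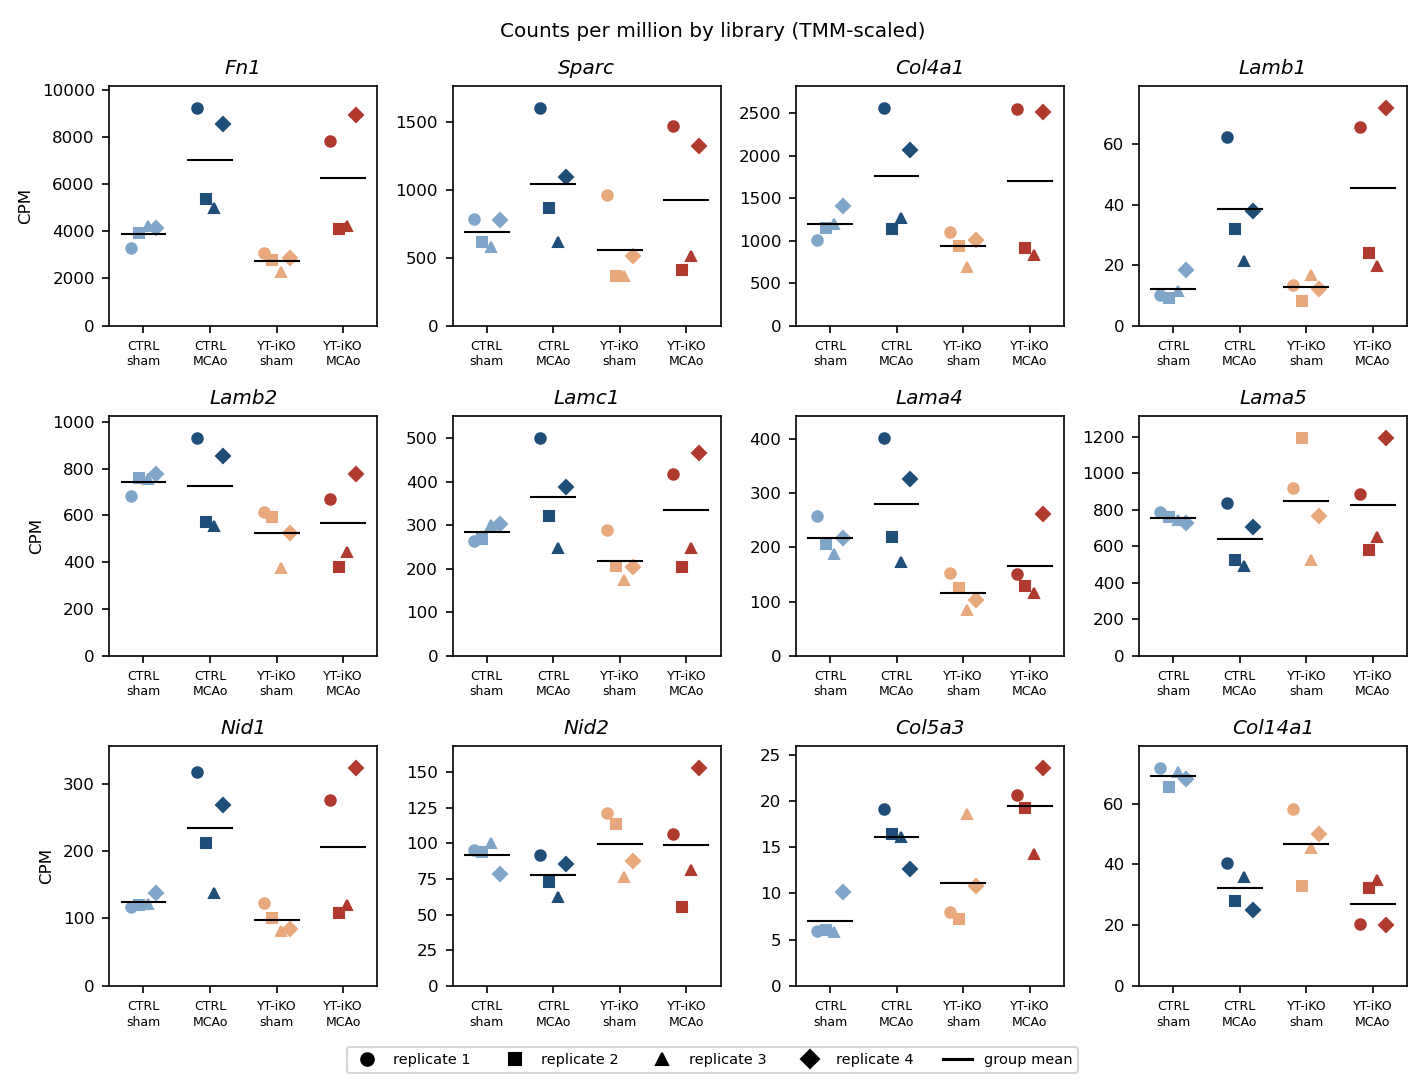
CPM of 12 matrix genes in each library, by group, with the replicate number as the marker and the group mean (n = 4) as a line. After MCAo, replicates 1 and 4 lie above replicates 2 and 3 for Fn1, Sparc, Col4a1, Lamb1, Lamb2, Lamc1, Lama4, Lama5, Nid1 and Nid2. Lamb1 and Fn1 lie above sham in all 4 libraries.

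Fn1 (ENSMUSG00000026193, chr1:71585520-71653200, - strand) had 3307, 3933, 4223 and 4115 CPM in CTRL sham and 9232, 5383, 4963 and 8546 CPM in CTRL MCAo. It had 3082, 2765, 2265 and 2865 CPM in YT-iKO sham and 7828, 4101, 4225 and 8944 CPM in YT-iKO MCAo. All MCAo libraries were above all sham libraries of their genotype. The log2 fold change was 0.85 (SE 0.32, adjusted p = 0.9995) in CTRL and 1.19 (SE 0.32, adjusted p = 0.255) in YT-iKO. DESeq2 called it in both genotypes, with adjusted p-values of 0.0714 and 0.00109. Sparc had means of 687 ± 107 CPM after sham and 1045 ± 421 after MCAo in CTRL, and of 553 ± 282 and 929 ± 547 in YT-iKO (SD, n = 4), and the groups overlapped in both genotypes.

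Col4a1 and Col4a2 are annotated head to head on opposite strands, and their starts overlap by 22 bp (chr8:11312805-11312826, GRCm38). Col4a1 had 1013, 1155, 1192 and 1407 CPM in CTRL sham and 2567, 1132, 1272 and 2071 CPM in CTRL MCAo. In YT-iKO it had 1105, 937, 687 and 1013 CPM after sham and 2555, 911, 829 and 2520 CPM after MCAo. In each genotype replicates 1 and 4 after MCAo were the highest libraries, and replicates 2 and 3 lay within the sham values. The log2 fold change of Col4a1 was 0.56 (SE 0.36) in CTRL and 0.87 (SE 0.36) in YT-iKO, that of Col4a2 0.50 (SE 0.35) and 0.77 (SE 0.35), and none had an adjusted p below 0.9995. Without YT-iKO MCAo replicate 1 those in YT-iKO were 0.49 and 0.38, and in limma-voom with sample weights their direction turned, to -0.12 and -0.20. The chains kept close to each other, with a Col4a1 to Col4a2 ratio per kilobase of 1.09 to 1.34 over the 16 libraries. Within YT-iKO it was 1.07-fold higher after MCAo, without overlap (exact permutation p = 0.0286, adjusted 0.0508). The other chains, Col4a3 to Col4a6, had 0.561 to 1.40 CPM per kilobase, and 2 of them, Col4a5 and Col4a6, were not above the even background.

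The MCAo replicates were uneven in markers of endothelial cells and pericytes as well as in the basement membrane genes. CTRL MCAo replicates 1 and 4 had an even background of 0.105 and 0.164 and YT-iKO MCAo replicates 1 and 4 one of 0.147 and 0.0312 CPM per kilobase, below all the other MCAo libraries. The 12 endothelial markers summed to 14300 to 24680 CPM over CTRL MCAo and to 10850 to 22130 CPM over YT-iKO MCAo, and pericyte markers to 606 to 1620 and 531 to 1281 CPM. The background was also taken off the counts, with libraries rescaled on genes of at least 10 CPM, an alternative chosen after the data were seen. The endothelial markers then summed to 18020 to 20530 CPM over CTRL MCAo and to 14600 to 17570 CPM over YT-iKO MCAo. The pericyte markers stayed more uneven, at 742 to 1326 and 691 to 1119 CPM. The mean log2 difference between MCAo and sham was then 0.92 in CTRL and 1.08 in YT-iKO for Fn1, 0.96 and 0.91 for Nid1 and 1.76 and 1.69 for Lamb1, each with the smallest exact permutation p of 0.0286. For Col4a1 it was 0.60 and 0.65 (exact permutation p = 0.0571 each), and for Lamc1 0.42 and 0.52 (exact permutation p = 0.0286 each).

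Among Lamc1, the proteoglycans and the multiplexins no change passed the main test. Lamc1 had log2 fold changes of 0.36 (SE 0.27) in CTRL and 0.61 (SE 0.27) in YT-iKO. In YT-iKO it was 0.39 without MCAo replicate 1 and 0.40 without MCAo replicate 4. With TMM factors from genes of at least 10 CPM, Lamc1 passed as higher after MCAo in both genotypes, as did Fn1, Lamb1 and Nid1, beside 1.78% of all genes in CTRL and 1.72% in YT-iKO. Agrn, which binds dystroglycan, had -0.04 and 0.07 (SE 0.28 each). Hspg2 had -0.01 and 0.18 (SE 0.29 each). In CTRL the signs of Agrn, Hspg2 and Lamb2 turned with that scaling. Of the multiplexins, whose ends release endostatin-type fragments, Col18a1 had 34.2 to 98.6 CPM in CTRL MCAo and 39.5 to 199 CPM in YT-iKO MCAo, and Col15a1 13.9 to 28.7 and 16.4 to 39.5 CPM.

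Col14a1 (ENSMUSG00000022371, chr15:55307750-55520803, + strand), a collagen that decorates the surface of fibrils, was the gene that fell. It had 71.7, 65.5, 70.5 and 68.2 CPM in CTRL sham and 40.4, 27.9, 35.7 and 25.0 CPM in CTRL MCAo. In YT-iKO it had 58.2, 32.98, 45.3 and 50.1 CPM after sham and 20.4, 32.3, 35.0 and 20.2 CPM after MCAo. The CTRL groups were well apart, and the YT-iKO groups overlapped. It fell 2.14-fold in CTRL (log2 fold change -1.10, SE 0.23, adjusted p = 0.0496), and the log2 fold change was -0.79 (SE 0.22, adjusted p = 0.315, and 0.0488 in DESeq2) in YT-iKO. The call was lost without any 1 of the CTRL sham replicates, with adjusted p-values of 0.174, 0.194, 0.156 and 0.103, and without CTRL MCAo replicate 2 (0.194) or 4 (0.319), while the log2 fold change stayed between -1.13 and -0.997. It was also lost with scaling on genes of at least 10 CPM (log2 -0.97, adjusted p = 0.182).

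The interstitial collagens were low. Of the 11 fibrillar collagens, 10 had a positive log2 fold change after MCAo in CTRL (median 0.50) and 6 in YT-iKO (median 0.06). None passed the main test in either. Without YT-iKO sham replicate 3, whose even background was 0.570, the fibrillar Col1a2 and Col5a3 passed in YT-iKO, beside 139 of 31589 genes. The directions were not counted without it, so the lower count in YT-iKO may rest on that library. Col5a3, a chain of collagen V, had 5.94, 6.10, 5.83 and 10.1 CPM in CTRL sham and 19.2, 16.4, 16.1 and 12.7 CPM in CTRL MCAo. Its log2 fold changes were 1.20 (SE 0.27, adjusted p = 0.105) in CTRL and 0.80 (SE 0.27, adjusted p = 0.640) in YT-iKO, with 0.00436 and 0.260 in DESeq2. In CTRL Col5a3 also passed with the replicate block, with RLE factors and with TMM factors from genes of at least 10 CPM. It passed too without a filter, with CPM above 1 in 4 libraries, with only the 2 groups in the model and in limma-voom. With 1 library left out, Col5a3, which was not called in CTRL in the main model, passed in 8 of 16 fits. Col1a2 had 0.79 (SE 0.24) and 0.74 (SE 0.24), and Col3a1 0.75 (SE 0.29) and 0.65 (SE 0.29, and 0.41 without YT-iKO sham replicate 2), and both are among the 20 genes near the even background. Col1a1, Col5a1, Col5a2, Col6a1, Col6a2 and Col6a3 had log2 fold changes of 0.23 to 0.60 in CTRL and -0.35 to 0.28 in YT-iKO. The 9 FACIT collagens, which associate with fibrils, had log2 fold changes of -1.10 to 0.53 in CTRL and -0.79 to 0.07 in YT-iKO, and the 7 collagens VI and VII 0.20 to 0.54 and -0.35 to 0.15. In all, 20 genes near the background had a median of 0.29 in CTRL and -0.06 in YT-iKO, and the 41 above it 0.36 and 0.07. Among the YT-iKO sham libraries, replicate 3 was the highest for all 20 low genes, and their median was not taken without it. Without that library the median over all genes tested for MCAo in YT-iKO moved from -0.02 to 0.07.

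For markers, above the background means a median over the 16 libraries of at least 3 times the expected count. This is not the rule used for the matrix genes. Of the 10 markers of fibroblasts, 4 were above the background. The 10 markers summed to 19.0 to 22.4 CPM after sham and 27.8 to 33.6 after MCAo in CTRL. In YT-iKO they summed to 18.0 to 36.0 and 19.8 to 35.2. Their median log2 fold change after MCAo was 0.39 in CTRL and 0.16 in YT-iKO, with 3 and 1 of the 10 higher at an unadjusted p under 0.05 (2.05% and 2.24% of all genes) and none called in edgeR. The marker with the largest difference was Dcn, the fibroblast proteoglycan decorin, with means of 1.16 CPM after sham and 5.28 after MCAo in CTRL (adjusted p = 0.168 in edgeR and 0.00436 in DESeq2), and of 1.14 and 4.81 CPM in YT-iKO (adjusted p = 0.205 and 0.00759). In the median library it had 1.18 times the count expected from the even background. DESeq2 called no other of the 7 fibroblast markers to which it gave an adjusted p. Pericyte markers, all 10 of which were above the background, summed to 795 to 1009 CPM in CTRL sham and 575 to 937 CPM in YT-iKO sham. Their median log2 fold change after MCAo was 0.39 in CTRL and 0.57 in YT-iKO, with 1 and 4 of the 10 higher at an unadjusted p under 0.05, beside the same shares of all genes, and none called. Pdgfrb, the pericyte receptor for PDGF-B, had 0.66 (SE 0.35) in CTRL and 0.92 (SE 0.35) in YT-iKO, the largest of the 10 there. The lowest pericyte marker in CTRL was Rgs5, at -0.12 (SE 0.29), which had 0.04 (SE 0.29) in YT-iKO. In YT-iKO the lowest was Higd1b, at -0.13 (SE 0.28), which had 0.20 (SE 0.28) in CTRL. None of the 8 neuronal markers was above the background. Markers of astrocytes, 6 of 8 of which were above the background, summed to 127 to 154 CPM after sham and 110 to 134 after MCAo in CTRL, and to 111 to 120 and 98.6 to 145 in YT-iKO. Their median log2 fold change after MCAo was -0.12 in CTRL and 0.03 in YT-iKO. Gfap, the astrocyte intermediate filament, had means of 5.13 CPM after sham and 11.2 after MCAo in CTRL (log2 fold change 1.12, SE 0.26, adjusted p = 0.126 in edgeR and 0.00789 in DESeq2), and of 6.12 and 8.52 CPM in YT-iKO (0.48, SE 0.26, adjusted p = 0.9999). Fgfr3, another astrocyte marker, had the opposite sign. Its log2 fold changes in edgeR were -0.70 (SE 0.22, adjusted p = 0.640) for CTRL and -0.49 (SE 0.22, adjusted p = 0.9999) for YT-iKO. At an unadjusted p under 0.05, CTRL had 1 astrocyte marker higher after MCAo, Gfap, and 1 lower, Fgfr3. For YT-iKO these counts were 0 higher and 1 lower, again Fgfr3, and edgeR called no astrocyte marker. The part of fibroblasts, pericytes and astrocytes in the values of the collagens and laminins was not tested.

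The alpha chains of other basement membranes of the brain were measured too. Lama2, a chain of the parenchymal basement membrane, had log2 fold changes after MCAo of 0.70 (SE 0.27) in CTRL and 0.86 (SE 0.27) in YT-iKO, with adjusted p-values of 0.9995 and 0.474. Lama1, a chain of the meningeal basement membrane, had 9.002, 10.4, 7.23 and 10.4 CPM in CTRL sham and 25.1, 22.1, 16.8 and 13.8 CPM in CTRL MCAo, which did not overlap. It had 7.09, 8.77, 18.7 and 10.8 CPM in YT-iKO sham and 9.18, 15.8, 11.7 and 4.24 CPM in YT-iKO MCAo, which overlapped. Its log2 fold changes were 1.07 (SE 0.32, adjusted p = 0.512) and -0.15 (SE 0.32, adjusted p = 0.9999). Lama1 had the smallest unadjusted p of the 61 genes for a difference of the responses, -1.22 on the log2 scale (SE 0.46, adjusted p = 0.9999). With 1 library left out this was -1.51 to -0.90. Lama1 was highest in YT-iKO sham replicate 3 and lowest in YT-iKO MCAo replicate 4, with even backgrounds of 0.570 and 0.0312. In CTRL MCAo it was highest in replicate 1, whose background of 0.105 was the lowest of that group. The part of the background in this difference was not tested. Col17a1, a transmembrane collagen of hemidesmosomes, did not overlap between sham and MCAo in either genotype, at log2 fold changes of 1.03 (SE 0.26, adjusted p = 0.174) and 0.97 (SE 0.25, adjusted p = 0.220), with 0.0193 and 0.0457 in DESeq2, on group means of 5.39 to 16.7 CPM.

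**Figure D3:**
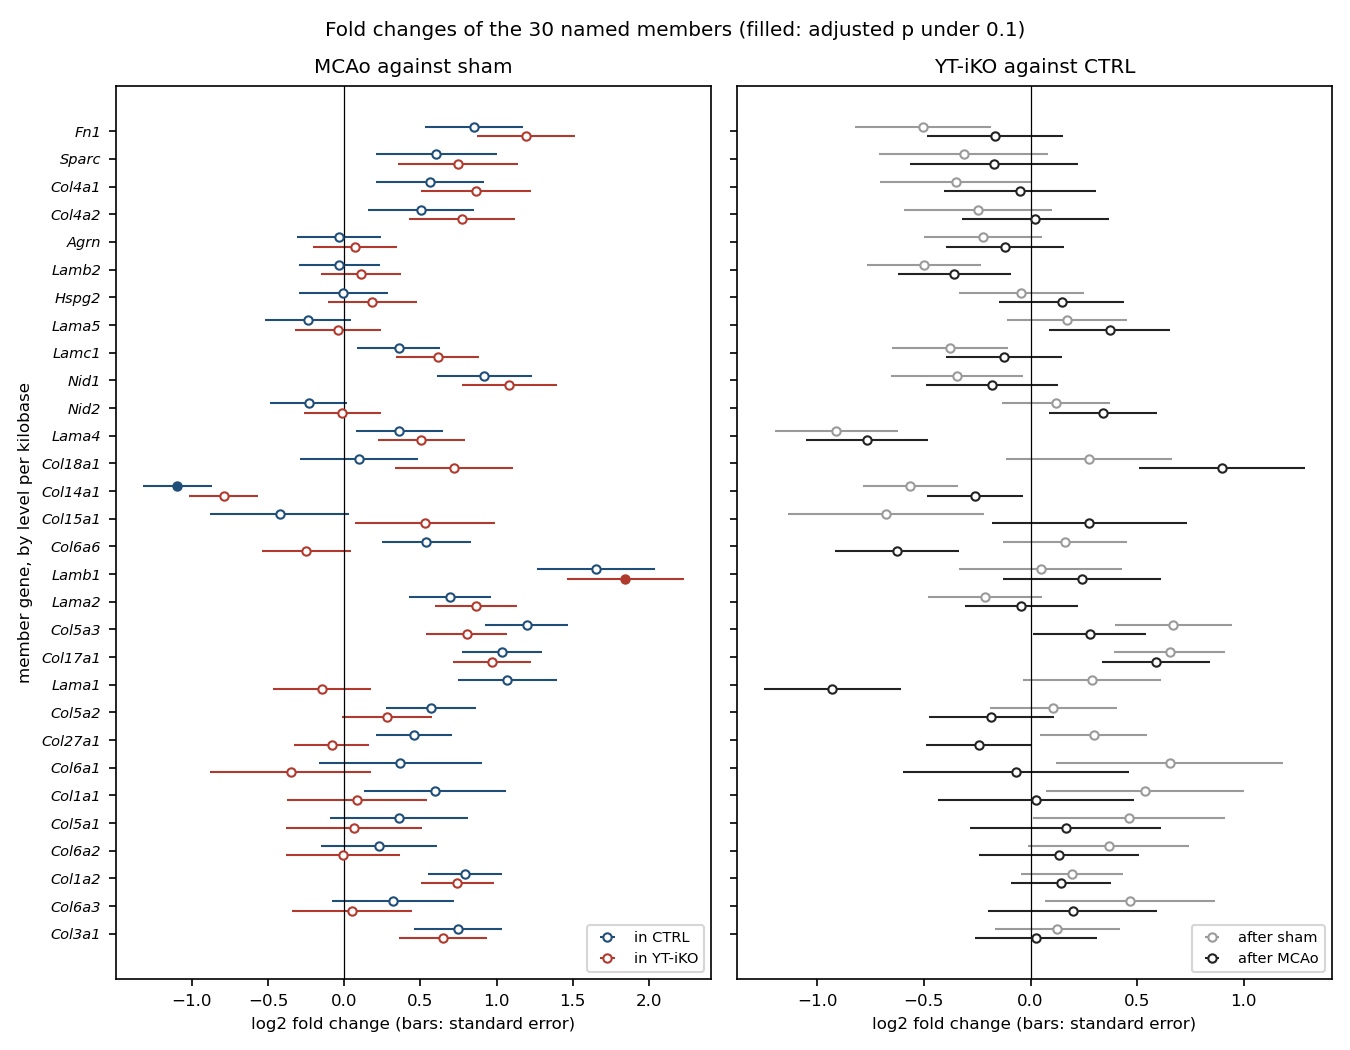
Log2 fold changes from edgeR, with standard errors as bars, of the 30 named matrix genes ordered by level, for MCAo against sham in each genotype (left) and YT-iKO against CTRL after each surgery (right). Filled points passed an adjusted p of 0.1, which were Col14a1 in CTRL and Lamb1 in YT-iKO.

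Whether matrix genes depend on endothelial YAP and TAZ was asked by comparing the genotypes after each surgery. No gene of the 61 was called in either comparison, beside 0.0965% of all genes after sham and 0.0708% after MCAo. DESeq2 also called 0, beside 0.42% and 0.461% of the genes to which it gave an adjusted p. At an unadjusted p under 0.05 in edgeR, 4 passed after sham (2.16% of all genes) and 5 after MCAo (1.49%). The genotypes did not overlap for 5 genes after sham (3.85% of all genes), namely Lama4, Lamb2, Fn1, Col14a1 and Col20a1, and for 1 after MCAo (0.981%), namely Col17a1.

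Lama4 (ENSMUSG00000019846, chr10:38965515-39110188, + strand), the alpha chain of a laminin typical of endothelium, was the gene with the smallest p after sham. It had 259, 207, 189 and 218 CPM in CTRL sham and 153, 125, 83.8 and 103 CPM in YT-iKO sham. After MCAo it had 402, 219, 174 and 328 CPM in CTRL and 152, 129, 117 and 262 CPM in YT-iKO. The sham groups did not overlap, and the MCAo groups did. The log2 fold change of YT-iKO against CTRL was -0.91 after sham (SE 0.29, adjusted p = 0.990) and -0.77 after MCAo (SE 0.29, adjusted p = 1.0). With scaling on genes of at least 10 CPM it passed in both, with adjusted p-values of 0.0150 and 0.0164, at log2 fold changes of -0.78 and -0.75, as did Lamb2, beside 0.37% and 0.582% of all genes. It also passed after sham with only those 2 groups in the model (adjusted p = 0.0142), and after both surgeries in limma-voom with sample weights (adjusted p = 0.0124 and 0.00875).

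The other endothelial alpha chain, Lama5, had 789, 762, 745 and 725 CPM in CTRL sham and 919, 1192, 523 and 767 CPM in YT-iKO sham. Its log2 fold changes between the genotypes were 0.17 (SE 0.28) after sham and 0.37 (SE 0.28) after MCAo. The ratio of Lama4 to Lama5 per kilobase was 0.239 to 0.310 in CTRL sham and 0.0991 to 0.157 in YT-iKO sham, 2.06-fold lower. After MCAo it was 0.332 to 0.454 in CTRL and 0.162 to 0.211 in YT-iKO, 2.16-fold lower. Neither pair of groups overlapped (exact permutation p = 0.0286 each, adjusted 0.0508). Within each genotype the ratio was also higher after MCAo, 1.48-fold in CTRL and 1.42-fold in YT-iKO, at the same p-values. The ratio of Nid1 to Nid2 was 1.38-fold lower in YT-iKO sham than in CTRL sham without overlap (exact permutation p = 0.0286), and 1.45-fold lower in YT-iKO after MCAo with overlap (exact permutation p = 0.0571). The Lamb1 to Lamb2 ratio overlapped between the genotypes after both surgeries.

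**Figure D4:**
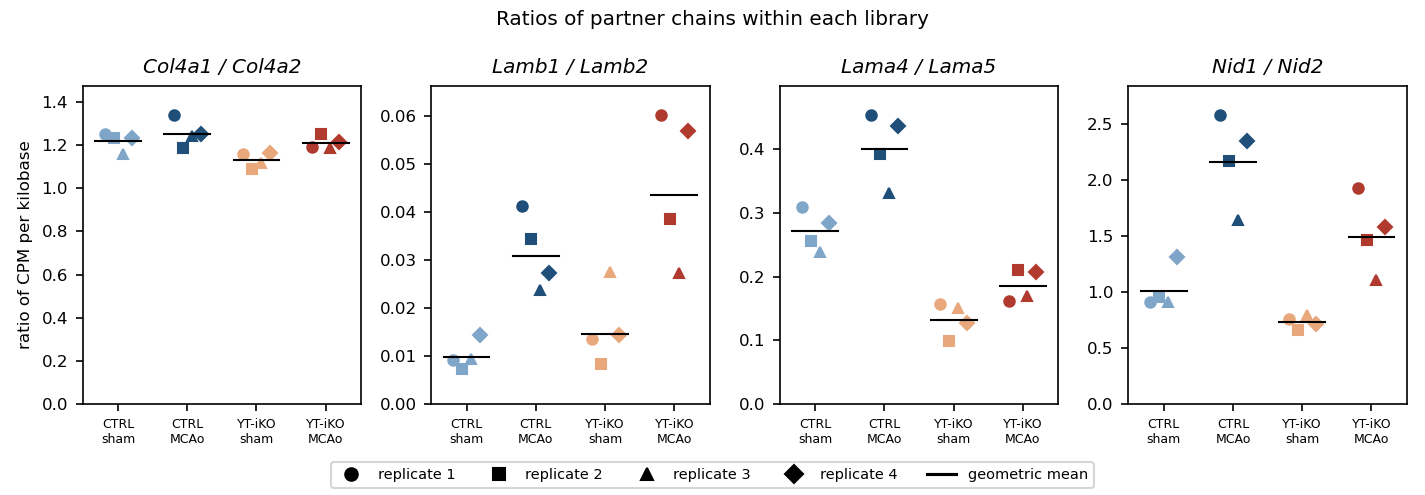
Ratio of 2 partner chains, each in CPM per kilobase of exon, in every library, with the replicate number as the marker and the geometric mean of the group as a line. Col4a1 to Col4a2 stays between 1.09 and 1.34, and Lama4 to Lama5 is lower in YT-iKO after both surgeries. The means of Lamb1 to Lamb2 and Nid1 to Nid2 are higher after MCAo, with sham and MCAo overlapping for Lamb1 to Lamb2 in YT-iKO.

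Lamb2 and Fn1 were lower in each YT-iKO sham library than in each CTRL sham library. The log2 fold changes were -0.50 (SE 0.27, adjusted p = 0.990) for Lamb2 and -0.50 (SE 0.32, adjusted p = 0.990) for Fn1. The 12 endothelial markers had a median of -0.26 in the same comparison and none was called, with -0.41 (SE 0.30) for the adhesion molecule Pecam1, -0.45 (SE 0.32) for the tight junction protein Cldn5 and -0.46 (SE 0.33) for the glucose transporter Slc2a1. They ranged from -0.11 for Kdr to -0.86 (SE 0.29) for Slco1a4, the only 1 with an unadjusted p under 0.05 (2.16% of all genes). Whether Lamb2 and Fn1 differ from these was not tested. Col14a1 had -0.56 (SE 0.22, adjusted p = 0.990) after sham and -0.26 (SE 0.22) after MCAo. After MCAo Col18a1 had 0.90 (SE 0.39), which was 0.27 without YT-iKO MCAo replicate 1. Lama1 had -0.93 (SE 0.32), Col17a1 0.59 (SE 0.25) and Col6a6, a collagen VI chain, -0.63 (SE 0.29), each, like Col18a1, with an adjusted p of 1.0. The median of the 61 genes was 0.27 after sham, 0.14 over the 41 genes above the even background and 0.44 over the 20 that were not, against 0.11 over all genes tested. With TMM factors from genes of at least 10 CPM the median of the 61 genes was 0.52, against 0.30 over all genes. All 11 fibrillar collagens and all 7 collagens VI and VII had a higher mean in YT-iKO after sham, with medians of 0.42 and 0.37, and 1 of these 18 genes (Col5a3, with 0.67, and 0.32 without YT-iKO sham replicate 3) had an unadjusted p under 0.05. YT-iKO sham replicate 3, with an even background of 0.570, was the highest of the 4 YT-iKO sham libraries for 20 of the 20 genes near the background, whose CPM summed to 189.8 in it and to 71.3 to 101 in the other 3. Col1a1, for example, had 12.6 CPM in it and 2.89, 4.95 and 4.74 in the others, against 3.03 to 5.46 in CTRL sham. Without this library the median over all genes tested fell from 0.11 to 0.02. The directions of the 18 collagens were not counted without it, so the counts of higher means may rest on 1 library. The part of the background in these values was not tested.

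No gene of the 61 differed between the genotypes in its response to MCAo at an adjusted p under 0.1, beside 0.0% of all genes tested in edgeR, and DESeq2 called 0. At an unadjusted p under 0.05 only Lama1 passed, where 0.373% of all genes did. MCAo against sham in CTRL and YT-iKO against CTRL after sham share the CTRL sham libraries, so that their fold changes are not independent.

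Genes that make or receive this matrix were measured with it. Of 33 genes of collagen maturation and cross-linking, all were tested and 26 were above the even background by the median rule of the markers. Of the 33, 1 passed in any of the comparisons, for MCAo in YT-iKO, where 0.318% of all genes passed. This was Tll1, a metalloproteinase that trims procollagens, which rose in YT-iKO from 4.51 ± 1.97 to 12.6 ± 3.44 CPM (SD, n = 4). Its log2 fold change was 1.48 (SE 0.32, adjusted p = 0.0606), and 1.02 (SE 0.32, adjusted p = 0.607) in CTRL. Tgm2, a transglutaminase that cross-links fibronectin, had 298 ± 51.2 CPM after sham and 536 ± 168 after MCAo in CTRL (SD, n = 4, adjusted p = 0.9995), and 258 ± 42.2 and 623 ± 340 CPM in YT-iKO (adjusted p = 0.2, and 0.00798 in DESeq2). None of the 11 matrix receptors passed in any comparison in edgeR, where 0.0708% to 0.318% of all genes passed between groups. Itga5, the alpha subunit of the fibronectin receptor, had means of 59.0 CPM after sham and 121 after MCAo in CTRL (adjusted p = 0.676), and of 63.0 and 156 CPM in YT-iKO (adjusted p = 0.203, and 0.0139 in DESeq2).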

How the data were processed

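RNA was measured in 16 libraries made with SMART-Seq Ultra Low Input from sorted bECs. The authors mapped reads with STAR 2.7.8a to GRCm38 with the GENCODE M12 annotation, and the values they deposited are unnormalized whole counts for each gene. The counting program and its use of strand are not given in the sources used here. Positions and exon lengths are from GENCODE M21 on GRCm38. Counts were tested in edgeR 4.0.16 (R 4.3.3) by quasi-likelihood, with all 4 groups in 1 model, TMM factors, filterByExpr (minimum count 10), and Benjamini-Hochberg adjustment over 31085 genes at 0.1. DESeq2 1.42.0 and limma 3.58.1 served as alternatives. CPM used TMM-scaled library sizes. Ratios of chains were compared by exact two-sided permutation over 70 assignments. Pools are the unit of replication. The edgeR fit was tested on simulated counts for the comparisons between 2 groups. Named genes were those called, a core and a perivascular list, the 5 highest per kilobase and the 3 smallest p-values of each comparison. Genes and lists were chosen with earlier results of these data known. Libraries held 11418262 to 23074547 counts.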

Additional observations from a re-analysis of the deposited data

Results flagged for a closer look

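In 36 measures over 4 groups, 144 groups of 4 libraries were checked for a library far from the other 3, and 5 had one, where chance gives about 1 in 20. CTRL sham replicate 4 had 72.8 CPM of Col15a1 against 10.3 to 16.3 in the other CTRL sham libraries, 10.1 CPM of Col5a3 against 5.83 to 6.10, and a Nid1 to Nid2 ratio of 1.31 against 0.905 to 0.952. YT-iKO sham replicate 3 had 23.3 CPM of Col27a1, a fibrillar collagen, against 11.7 to 13.6. CTRL sham replicate 2 had 5.64 CPM of Col1a2 against 6.32 to 6.45. Causes were not tested.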

How the results depend on the processing

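The number of matrix genes called depended on the processing, and the cause was not tested. In this paragraph all genes are those with an adjusted p in the fit concerned, which for DESeq2 are fewer than in the main model. For MCAo against sham in CTRL it was 1 in the main model, 5 with DESeq2 (1.11% of all genes), 3 with RLE factors (0.315%), 5 with TMM factors from genes of at least 10 CPM (1.78%), 3 without a filter (0.254%), 3 with a filter of CPM above 1 in 4 libraries (0.474%), 9 with only the 2 groups in the model (2.52%), 32 in limma-voom with sample weights (24.2%), and 0 to 5 when 1 library was left out (of CTRL sham, 0 without replicate 1, 2 or 3 and 2 without 4; of CTRL MCAo, 0 without 2 or 4 and 2 without 3; of YT-iKO sham, 4 without 1 or 3 and 3 without 2; of YT-iKO MCAo, 3 without 1, 2 or 3 and 5 without 4). In YT-iKO it was 1, and 5 (1.25%), 1 (0.354%), 4 (1.72%), 1 (0.27%), 2 (0.536%), 0 (0.0624%), 24 (18.1%) and 0 to 4 in the same order, where leaving out 1, 2 or 4 of YT-iKO sham or 1 of YT-iKO MCAo gave 0, 3 of YT-iKO sham gave 4 and 2 of YT-iKO MCAo gave 3. Between the genotypes it was 0 and, with factors from genes of at least 10 CPM, 2 after sham and 2 after MCAo (Lama4 and Lamb2 each time), with only the 2 groups 1 after sham (Lama4, 0.506% of all genes), and in limma-voom 1 (Lama4, 0.46%) and 2 (Lama4 and Nid1, 0.827%). That scaling moved the median over all genes from 0.11 to 0.30 after sham and from 0.07 to 0.21 for MCAo in CTRL, and for the difference of the responses from -0.02 to -0.16. Without the libraries of lowest and highest background, added after the data were seen, 5 were called in CTRL (0.485% of all genes) and 1 in YT-iKO (0.328%). At 10 times the expected count 19 genes were above the background. Col4a1 (-0.12) and Col4a2 (-0.20) turned in direction for MCAo in YT-iKO in limma-voom, and signs that turned with RLE, DESeq2 or the 10 CPM scaling belonged to log2 fold changes of at most 0.19 in size. With a replicate block 3 were called in CTRL (Col14a1, Col5a3 and Lamb1, 0.383% of all genes), 1 in YT-iKO (Lamb1, 0.425%) and 0 between the genotypes. Libraries with the same number deviated together more than others (a median correlation of 0.20 over 24 pairs against -0.12 over 72), but 15 of the 24 and not all were above 0.1, and 7 of 16 libraries were closest to their own number, so the numbers were not taken as pairs. For Lama4 after MCAo the block gave -0.74 between the genotypes (adjusted p = 0.799).

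With 1 library left out, the log2 difference between MCAo and sham in the ratio of Lamb1 to Lamb2 in YT-iKO was 1.32 to 1.89, and the exact permutation p was 0.0286 without YT-iKO sham replicate 3 (1.89) and with the even background taken off (1.75). For Lama4 to Lama5 it was 0.51 to 0.66 in CTRL, with an exact permutation p of 0.0571 without any 1 CTRL sham library, and 0.37 to 0.59 in YT-iKO, with a p of 0.0571 to 0.0857 without YT-iKO sham replicate 2 or any 1 YT-iKO MCAo library, also where the difference was larger than with all libraries. For Nid1 to Nid2 in YT-iKO it was 0.90 to 1.17, with an exact p of 0.0571 without YT-iKO sham replicate 2 (0.98). For Col4a1 to Col4a2 it was 0.080 to 0.11 for MCAo in YT-iKO, with an exact p of 0.0571 without YT-iKO MCAo replicate 2, and -0.13 to -0.088 between the genotypes after sham, with an exact p of 0.0286 without CTRL sham replicate 3. Depth and the even background limit what can be said of the 20 lowest genes.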
